A study of Rattus norvegicus with 20 samples.

Results

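The comparison described here set vocal folds taken 4 weeks after injury against vocal folds taken 1 week after injury. It used the 10 arrays of 20 whose labels give those times, 5 at 1 week and 5 at 4 weeks, and the 15049 of 24871 probe sets that carry exactly 1 gene symbol in the platform annotation (15037 genes). Each array held RNA from the vocal folds of a different adult male Sprague-Dawley rat. In every injured animal the lamina propria, the soft connective tissue layer beneath the epithelium, had been separated from the thyroarytenoid muscle and removed. The methods and labels set the groups apart by the time of sacrifice, with no drug, transgene or other treatment given in the labels. Because the methods give 1 age range for all animals, those at 4 weeks were also older at sacrifice. Age and time after injury cannot be told apart. The series also held uninjured controls, not used here, and 5 animals at 8 weeks after the same injury, which entered the fit to estimate the spread of each probe set and are given beside some results. According to the methods the injury was unilateral or bilateral, whereas the labels state that both folds were dissected, so a sample may hold uninjured tissue beside injured tissue. In tissue of mixed cell types, fewer cells of a type and less RNA per cell cannot be told apart.

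Wounds of connective tissue pass from a proliferative phase, in which activated fibroblasts lay down collagens, elastic fibre precursors and matricellular proteins, into a remodelling phase in which synthesis declines and the deposited matrix is crosslinked and reorganised. Matricellular proteins are secreted proteins that act on cells and on fibre assembly rather than as the load-bearing fibres themselves. In the vocal fold the order and amount of collagen, elastin and hyaluronan in the lamina propria set how well the fold vibrates, and scar that replaces it is stiff.

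Values are log2 RMA signals, where 1 unit is a doubling of signal. Array medians ranged from 4.83 to 4.89 at 1 week and from 4.83 to 4.90 at 4 weeks, and the hybridization controls averaged 10.01 to 10.44 and 9.95 to 10.31. The 23 background probe sets averaged 3.17 to 3.61 at 1 week and 3.18 to 3.36 at 4 weeks, with single ones as high as 7.14, and without detection calls a dim probe set may read background alone. Replicate 4 at 1 week had the highest background mean (3.61), the highest hybridization controls (10.44) and the lowest upper quartile of signals (6.06). Its mean correlation with the other 9 arrays was 0.966, the lowest but for replicate 2 at 4 weeks (0.949). Whether this bears on its signals in the genes below was not tested. Replicate 2 at 4 weeks stood apart, with correlations over all probe sets of 0.938 to 0.959 with the other 9 arrays, against 0.964 to 0.984 among those 9. Some results are given with and without it, and the falls whose call rested on it are named below. The labelled tissue carried high signals of adult sarcomere genes, with list means of 8.41 to 8.79 at 1 week and 7.84 to 8.50 at 4 weeks, and of squamous epithelial keratins, with list means of 7.33 to 7.72 and 7.40 to 8.06, while thyroid and parathyroid genes lay between 4.02 and 4.47.

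Among the genes that passed the test between 1 and 4 weeks, most were lower at 4 weeks, among them Cthrc1, Thbs2, Igf2 and Eln. Of the 15049 probe sets, 25 (0.166%) differed at a Benjamini-Hochberg adjusted p under 0.05 in limma, 23 of them lower at 4 weeks (0.153%) and 2 higher (0.0133%). The median difference over all probe sets was 0.02 log2 units, with quartiles of -0.12 and 0.16. The falls among the 23 lay between 0.73 and 2.66 log2 units and 13 were at least 1, and in 24 of the 25 the values of the groups did not overlap. At an unadjusted p under 0.05, 674 probe sets were lower (4.48%) and 867 higher (5.76%). Among all probe sets, 135 (0.897%) were lower and 155 (1.03%) higher at 4 weeks with no overlap between groups, so the split of the calls towards falls was not seen in these wider counts.

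The number of calls moved with single animals. It was 6 without replicate 1 at 1 week and 51 without replicate 4 at 1 week, and between them 8 without replicate 2 and 7 without replicate 3 at 1 week, and 7 without replicate 4 and 9 without replicate 5 at 4 weeks. Without replicate 2 at 4 weeks 19 were called, among them 16 of the 23 falls and 0 of the 2 rises. In that fit 623 lower and 891 higher had an unadjusted p under 0.05. The falls that lost their call in it were Mfap2, Lrrc17, Vch, Pamr1, Alx1, Armcx6 and Pxdn (limma adjusted p from 0.057 to 0.095). Thbs2, Cthrc1, Igf2, Eln, Ndn and Maged2 were called in every fit that left out an animal, and the other 19 lost their call without replicate 1 at 1 week.

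**Figure D1:**
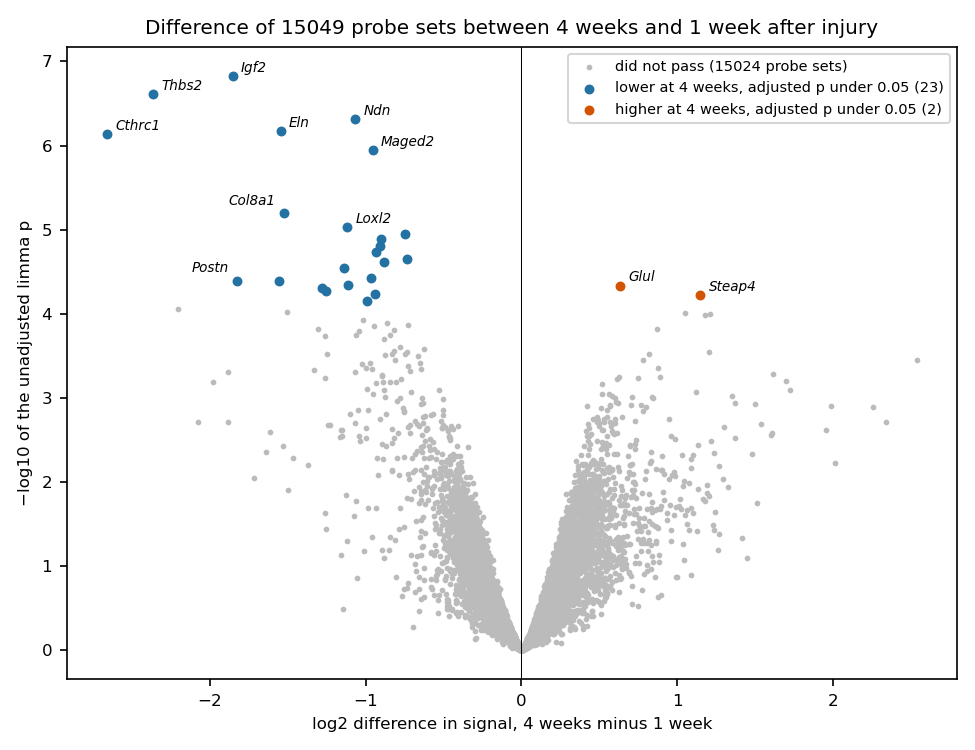
Log2 difference in signal (4 weeks minus 1 week, x axis) against −log10 of the unadjusted limma p (y axis) for 15049 probe sets, with those past the adjusted threshold in blue (23 lower) and orange (2 higher). The called probe sets lie almost all on the left, led by Cthrc1, Thbs2, Igf2 and Eln.

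Cthrc1, Thbs2, Igf2 and Eln had the smallest adjusted p-values together with Ndn, and are the genes used as markers of the comparison. Thbs2 encodes thrombospondin 2, a matricellular protein that takes part in collagen fibril assembly and restrains blood vessel growth. Its log2 signal was 7.70, 7.26, 8.10, 6.17 and 6.91 in replicates 1 to 5 at 1 week and 5.12, 4.45, 4.92, 4.85 and 4.99 at 4 weeks. Every animal at 1 week lay above every animal at 4 weeks, with replicate 4 the lowest at 1 week. The mean fell from 7.23 ± 0.74 to 4.86 ± 0.25 (SD, n = 5), a 5.15-fold fall of 2.36 log2 units (95% confidence interval -2.98 to -1.75, limma adjusted p = 0.0018).

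Cthrc1 encodes a secreted collagen triple helix repeat protein of activated fibroblasts. Its log2 signal was 8.64, 8.19, 9.07, 6.34 and 7.92 at 1 week and 5.20, 5.62, 5.85, 5.31 and 4.87 at 4 weeks. The groups were apart, although replicate 4 at 1 week again lay closest to the later animals. The mean fell from 8.03 ± 1.04 to 5.37 ± 0.38 (SD, n = 5), a 6.32-fold fall and the largest of the called differences (-2.66 log2 units, 95% confidence interval -3.41 to -1.91, limma adjusted p = 0.0022). Postn, the gene of periostin, a matricellular protein that binds collagen and promotes its crosslinking, was measured at 10.29, 9.90, 10.47, 8.92 and 9.93 at 1 week and at 8.48, 8.43, 8.14, 6.99 and 8.32 at 4 weeks. The groups did not overlap, and replicate 4 was the lowest animal in each. Postn fell by 1.83 log2 units (standard error 0.34, limma adjusted p = 0.034), a call that was lost without replicates 1, 2, 3 or 5 at 1 week and without replicates 3, 4 or 5 at 4 weeks.

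Of 20 measured matricellular genes these 3 fell, 0 rose and 17 did not pass the test, against 0.153% of all probe sets called lower. The median difference of the list was -0.57 log2 units, against 0.02 over all probe sets, and 18 of the 20 differences were below 0. Fn1 (fibronectin) differed by -0.86, Sparc by -0.71 and Spp1 (osteopontin) by -1.0, none past the adjusted threshold, and Tnc (tenascin C) by -1.16 with a wide spread at 1 week (6.78 ± 1.66, SD, n = 5). These 4 genes, like others that are listed with the processing, were picked after their values were seen.

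Elastic fibres consist of an elastin core laid on microfibrils of fibrillin. Of the 15 measured genes of this list 4 fell, the most of any list, against 0.153% of all probe sets called lower. Eln, the gene of elastin, was measured at 9.37, 10.04, 9.84, 9.02 and 9.82 at 1 week and at 8.56, 7.50, 8.36, 8.14 and 7.79 at 4 weeks. No animal at 4 weeks reached the lowest animal at 1 week. The mean fell from 9.61 ± 0.41 to 8.07 ± 0.43 (SD, n = 5), a 2.92-fold fall of 1.55 log2 units (95% confidence interval -1.98 to -1.11, limma adjusted p = 0.0022). Fbn1 encodes fibrillin-1, the main microfibril protein. Its signal was 9.88, 9.80, 9.66, 9.35 and 9.92 at 1 week and 8.90, 8.91, 8.87, 8.82 and 8.60 at 4 weeks, a narrow range in each group and a fall of 0.90 (limma adjusted p = 0.020).

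Mfap2, a microfibril-associated glycoprotein, fell by 0.88 (6.21 ± 0.22 to 5.33 ± 0.34, SD, n = 5, limma adjusted p = 0.026), and Ltbp2, a fibrillin-binding relative of the latent TGF-beta binding proteins, fell by 1.12 (5.38 ± 0.36 to 4.27 ± 0.40, SD, n = 5, limma adjusted p = 0.035). Fbn2, Mfap4 and Mfap5 also did not overlap between groups but missed the threshold, with differences of -1.04, -1.07 and -0.84 (limma adjusted p = 0.063, 0.11 and 0.067). The list had a median difference of -0.49, or -0.27 without replicate 2 at 4 weeks, and 14 of 15 differences were below 0. The other members were closer to 0, with Fbln5 at -0.49, Emilin1 at -0.05 and Fbln1 at 0.26.

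All 12 measured collagen chains had differences below 0, with a median of -0.70. Of them 2 fell and 10 did not pass, against 0.153% of all probe sets called lower. Col8a1, the alpha 1 chain of the short-chain collagen VIII, was measured at 7.44, 6.85, 8.05, 6.36 and 7.08 at 1 week and at 5.83, 6.12, 5.37, 5.28 and 5.55 at 4 weeks. The groups were separate, with the lowest animal at 1 week just above the highest at 4 weeks. Its fall was 1.53 log2 units or 2.88-fold (standard error 0.24, limma adjusted p = 0.014). Col3a1, of the thin fibrils of early repair, was measured at 10.78, 10.90, 10.71, 10.39 and 10.63 at 1 week and at 9.85, 9.06, 10.20, 9.85 and 9.61 at 4 weeks. It fell by 0.97 with no overlap (standard error 0.18, limma adjusted p = 0.034), or by 0.80 without replicate 2 at 4 weeks, the lowest animal. Col1a1 (type I collagen) had means of 10.34 ± 0.18 and 9.32 ± 0.55 (SD, n = 5), a difference of -1.02 that missed the threshold (limma adjusted p = 0.058). At an unadjusted p under 0.05, 10 of the 12 chains were lower, against 4.48% of all probe sets.

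Among 21 genes of collagen folding and crosslinking, Loxl2 and Loxl1 fell and 19 did not pass, against 0.153% of all probe sets called lower. Both encode lysyl oxidase-like enzymes, which oxidise lysines of collagen and elastin so that the fibres crosslink. Loxl2 was measured at 6.76, 6.63, 7.04, 5.95 and 6.72 at 1 week and at 5.83, 5.45, 5.65, 4.99 and 5.58 at 4 weeks, and it fell by 1.12 (limma adjusted p = 0.018). Loxl1 was measured at 8.41, 8.48, 8.58, 7.90 and 8.29 at 1 week and at 7.67, 7.21, 7.69, 7.43 and 7.12 at 4 weeks, and it fell by 0.91 (limma adjusted p = 0.021). In both genes the animals of the groups were apart, and replicate 4 was the lowest at 1 week. Plod2 (a lysyl hydroxylase) differed by -0.91 and Fkbp10 (a collagen chaperone) by -0.81 without passing. The list median was -0.27.

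The small leucine-rich proteoglycans, which coat collagen fibrils and control their width, had the lowest median of all lists, -0.98 over 10 measured genes. Without replicate 2 at 4 weeks the median was -0.78. Only Fmod (fibromodulin) fell, against 0.153% of all probe sets called lower. It was measured at 6.44, 6.17, 6.41, 6.37 and 5.75 at 1 week and at 5.60, 5.20, 4.56, 5.07 and 5.01 at 4 weeks, a fall of 1.14 in which the groups just failed to meet (standard error 0.20, limma adjusted p = 0.028). Bgn (biglycan) differed by -0.82 and Aspn (asporin) by -1.26 without passing (limma adjusted p = 0.063 and 0.067), Bgn passing in 6 of 21 alternatives (adjusted p from 0.022 to 0.39), while Dcn (decorin) differed by 0.05 (11.72 ± 0.15 and 11.78 ± 0.12, SD, n = 5). The mean signal of the list was 8.16 to 8.83 at 1 week and 7.04 to 8.05 at 4 weeks, and its lowest animal was replicate 2 at 4 weeks. Epyc (epiphycan, -1.98, not passing) is also a cartilage gene, and the 13 cartilage genes described below had list means of 5.77 to 6.07 at 1 week and 4.88 to 5.40 at 4 weeks. Their part in this result was not tested.

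**Figure D2:**
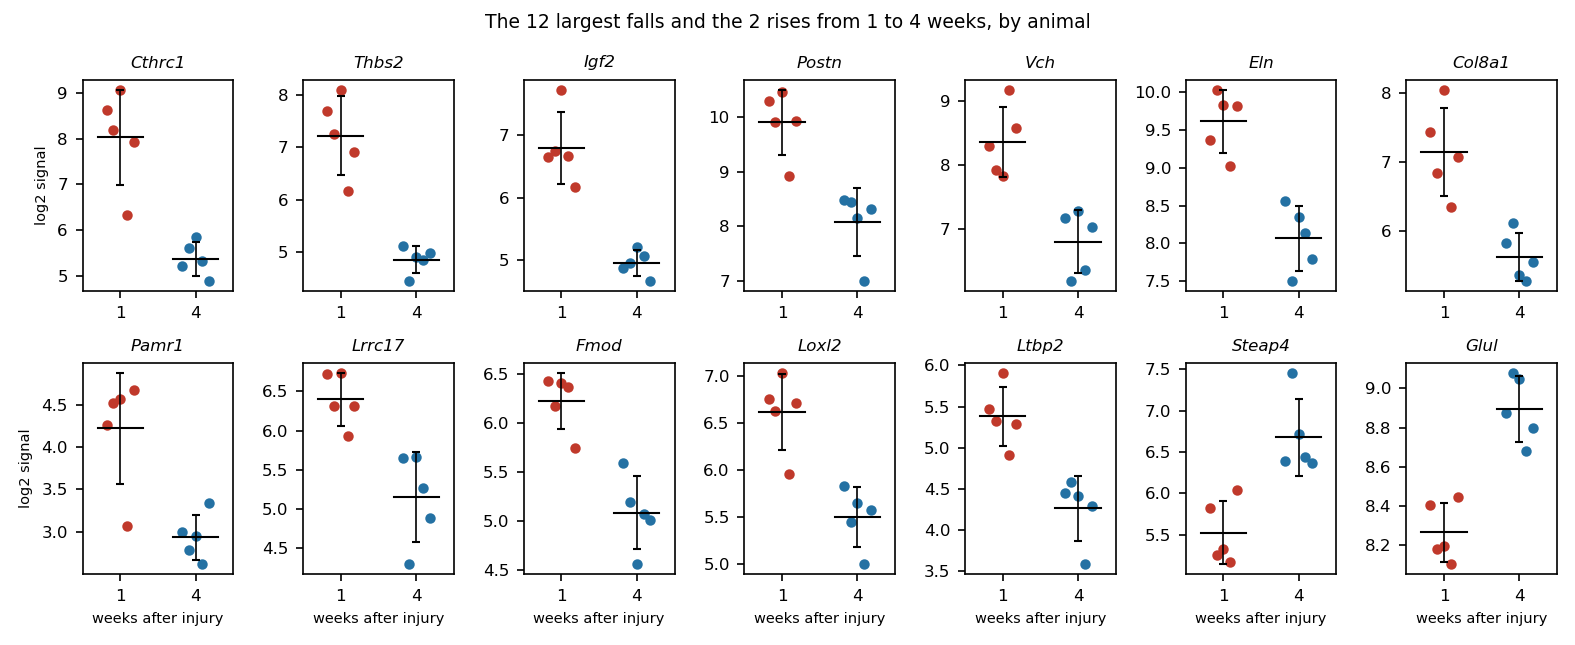
Log2 signal (y axis) of each animal at 1 and 4 weeks after injury (x axis) for the 12 largest falls and the 2 rises past the threshold, with horizontal lines at the mean and bars of 1 SD (n = 5). Except in Pamr1, the lowest animal of the higher group lies above the highest animal of the lower group.

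Igf2 encodes insulin-like growth factor 2, a growth factor of fetal tissue that is expressed from the paternal allele. Its log2 signal was 6.65, 6.75, 7.74, 6.67 and 6.17 at 1 week and 4.87, 4.94, 5.20, 5.06 and 4.65 at 4 weeks. The 4-week animals were within a narrow band below all 1-week animals. The mean fell from 6.80 ± 0.57 to 4.94 ± 0.21 (SD, n = 5), a 3.61-fold fall of 1.85 log2 units (95% confidence interval -2.32 to -1.39, limma adjusted p = 0.0018). Of 17 measured genes of the insulin-like growth factor system only Igf2 fell, against 0.153% of all probe sets called lower. Igf1, Igf1r and Igf2r differed by -0.14, 0.06 and -0.32, none past the threshold, and the list median was -0.09.

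Ndn (necdin), another paternally expressed imprinted gene and a member of the MAGE family, was measured at 5.26, 5.41, 5.66, 5.74 and 5.56 at 1 week and at 4.84, 4.45, 4.27, 4.30 and 4.45 at 4 weeks. The groups did not overlap, and the fall was 1.07 log2 units (standard error 0.14, limma adjusted p = 0.0022). Maged2, of the same family, was measured at 6.77, 7.19, 7.28, 7.03 and 6.78 at 1 week and at 6.18, 5.77, 6.13, 6.16 and 6.04 at 4 weeks, a fall of 0.95 (limma adjusted p = 0.0028). Of 12 imprinted genes of fetal growth 2 fell, Igf2 and Ndn, against 0.153% of all probe sets called lower. The list median was -0.47, or -0.35 without replicate 2 at 4 weeks, with 11 of 12 differences below 0. Cdkn1c, Mest and Dlk1 differed by -1.06, -1.03 and -0.78 without passing.

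Fstl1 (follistatin-like 1, a secreted glycoprotein of mesenchymal cells) fell by 0.93 from 10.16 ± 0.23 (SD, n = 5, limma adjusted p = 0.023). It was the only 1 of 25 genes of TGF-beta, BMP and activin signalling to pass, against 0.153% of all probe sets called lower. The list median was -0.09. Tgfb3 and Grem1 differed by -0.87 and -0.93 without passing, while Tgfb1 differed by 0.41. Pxdn (peroxidasin, which crosslinks collagen IV) fell by 0.99, Clec11a (a secreted lectin that promotes bone formation) by 0.75 and Alx1 (a homeobox factor of head mesenchyme) by 0.94 (limma adjusted p = 0.042, 0.019 and 0.038). Lrrc17 and Vch fell by 1.25 and 1.55 (limma adjusted p = 0.036 and 0.034). Pamr1 fell by 1.28 and Armcx6 by 0.73 (limma adjusted p = 0.035 and 0.026), both at signals close to the mean of the background probe sets at 4 weeks. For Pamr1, replicate 4 at 1 week (3.07) lay below replicate 5 at 4 weeks (3.33), the only overlap among the called genes.

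Just outside the threshold came Lrrc15, a marker of activated fibroblasts, with a difference of -2.21 (limma adjusted p = 0.0502). Without replicate 2 at 4 weeks it differed by -2.42 and passed (limma adjusted p = 0.049), as it did in 7 of 21 alternatives (adjusted p from 0.011 to 0.44). Its signal was 5.76, 5.31, 7.83, 5.01 and 5.83 at 1 week and 4.48, 4.58, 3.36, 3.47 and 2.82 at 4 weeks, without overlap. Just inside was Pxdn. Beyond Lrrc15, the next by unadjusted p were Cnmd, described below, and then Ccl20, Car12 and Cebpd. These last genes were higher at 4 weeks, by 1.05, 1.21 and 1.18, and just missed the threshold (limma adjusted p = 0.051 for each). The fibroblast and PDGF list of 20 genes had 0 calls in limma and a median of -0.30. At an unadjusted p under 0.05, 8 were lower and 1 higher, against 4.48% and 5.76% of all probe sets. Without replicate 2 at 4 weeks these counts were 5 and 0. Fap, the fibroblast activation protein, differed by -0.92 and Pi16, a marker of adventitial fibroblasts, by -0.88, whereas the receptors Pdgfra and Pdgfrb differed by 0.12 and -0.25. Contractile genes of myofibroblasts and smooth muscle moved little, with Acta2 at -0.12, Tagln at -0.47 and a list median of -0.21 over 14 genes. Of these 0 were called and 1 was lower at an unadjusted p under 0.05, against 4.48% of all probe sets.

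The promoters of the called genes with the largest falls that have an entry in the RefSeq table of GRCr8 are printed because these genes fell together and the table gives their sequence before the start of transcription. Of the 23 fallen genes 18 had an entry, and of the 15037 genes tested 12281. Each run is the 250 bases before the start, 5′ to 3′ on the strand of the gene, with matches to TATAAA or to GTCTG on either strand in capitals, and for Igf2 the entry listed earliest was taken. They lie at chr1:207253981-207254230 (minus strand, Igf2), chr2:140677811-140678060 (plus, Postn), chr15:33569491-33569740 (plus, Vch) and chr11:56246532-56246781 (plus, Col8a1).
Igf2: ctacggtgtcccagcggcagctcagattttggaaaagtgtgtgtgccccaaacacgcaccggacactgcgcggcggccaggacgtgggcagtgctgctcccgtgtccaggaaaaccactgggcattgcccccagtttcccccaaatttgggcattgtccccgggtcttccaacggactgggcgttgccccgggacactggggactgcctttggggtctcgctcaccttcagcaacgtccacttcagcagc
Postn: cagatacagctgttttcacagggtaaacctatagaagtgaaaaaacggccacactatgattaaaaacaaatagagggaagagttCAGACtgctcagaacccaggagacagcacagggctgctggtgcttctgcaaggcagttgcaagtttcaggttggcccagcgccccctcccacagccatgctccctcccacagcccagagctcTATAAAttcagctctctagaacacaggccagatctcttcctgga
Vch: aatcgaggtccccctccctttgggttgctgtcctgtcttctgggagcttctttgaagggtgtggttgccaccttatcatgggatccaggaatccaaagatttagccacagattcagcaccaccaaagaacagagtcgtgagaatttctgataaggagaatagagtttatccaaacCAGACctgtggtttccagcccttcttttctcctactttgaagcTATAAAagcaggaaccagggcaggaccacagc
Col8a1: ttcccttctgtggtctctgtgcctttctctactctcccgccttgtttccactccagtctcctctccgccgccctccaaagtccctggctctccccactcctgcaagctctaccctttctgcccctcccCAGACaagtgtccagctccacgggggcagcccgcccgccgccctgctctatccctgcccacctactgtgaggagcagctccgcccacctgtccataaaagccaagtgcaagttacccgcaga
TATAAA, the core of the TATA box, was present in 4 of the 18 windows (22.2%), those of Lrrc17, Maged2, Postn and Vch, and in 11.2% of the windows of all tested genes. GTCTG or its reverse complement CAGAC, the letters that SMAD proteins bind, was present in 12 (66.7%) against 41.7% of all. CCAAT was present in 3 (16.7%) against 35.2%, GGGCGG in 10 (55.6%) against 47%, TGANTCA in 1 (5.56%) against 5.53% and GGAATG in 2 (11.1%) against 10.6%. TATAAA was also searched on both strands, and no motif searched overlaps another in its letters. The median GC content was 58.6% in the 18 windows and 57.2% in all.

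For the fallen genes, the 8-week mean was nearer to the 4-week than to the 1-week mean in 20 of the 23, for example Thbs2 at 5.06 ± 0.49, Cthrc1 at 4.96 ± 0.30, Igf2 at 4.94 ± 0.29 and Eln at 8.20 ± 0.16 (SD, n = 5). The 23 were chosen by their difference between 1 and 4 weeks, and the same count over all probe sets was not made. The exceptions were Fmod at 6.34 ± 0.38, Alx1 at 7.36 ± 0.31 and Armcx6 at 3.86 ± 0.19 (SD, n = 5), of which Fmod had a difference of 1.25 between 8 and 4 weeks. Col8a1, among the 20, was at 6.25 ± 0.17 (SD, n = 5) at 8 weeks, 0.62 above its 4-week mean. No probe set passed the test between 8 and 4 weeks in the same fit, where 426 had an unadjusted p under 0.05, and limma gave Fmod an adjusted p of 0.14.

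The 13 measured cartilage genes had a median difference of -0.73, with 12 below 0 and 0 called in limma. At an unadjusted p under 0.05, 8 of the 13 were lower, against 4.48% of all probe sets. No test of the list's level was run at 4 or 8 weeks. Its mean signal was 5.77 to 6.07 at 1 week, 4.88 to 5.40 at 4 weeks and 5.48 to 6.14 at 8 weeks, so that the animals at 4 weeks lay below those of both other times. Cnmd (chondromodulin, a cartilage protein that restrains vessels) was measured at 5.51, 6.40, 6.05, 5.65 and 6.47 at 1 week and at 5.29, 3.93, 4.11, 4.62 and 4.61 at 4 weeks. It differed by -1.50 without overlap and just missed the threshold (limma adjusted p = 0.051), which it passed in 7 of 21 alternatives (adjusted p from 0.027 to 0.36), and its mean at 8 weeks was 6.26 ± 0.67 (SD, n = 5). Hapln1 (a link protein that joins hyaluronan to aggrecan) had means of 4.84, 3.87 and 5.11 at 1, 4 and 8 weeks, and Acan (aggrecan) of 6.21, 5.43 and 6.29. Laryngeal cartilage borders the dissected fold, and its share in each sample was not tested.

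Embryonic and regenerating muscle genes had a median difference of -0.63 over 20 genes, with 0 called. At an unadjusted p under 0.05, 8 were lower, against 4.48% of all probe sets. Without replicate 2 at 4 weeks this count was 6. Myh3, the embryonic myosin heavy chain, was measured at 8.08, 8.55, 10.19, 6.74 and 6.98 at 1 week and at 6.74, 6.20, 6.84, 6.17 and 6.53 at 4 weeks. The spread at 1 week was wide, with replicate 4 level with the animals at 4 weeks, and the difference of -1.61 did not pass (limma adjusted p = 0.20). Myh8, the perinatal chain, was measured at 8.79, 9.37, 9.86, 8.56 and 8.26 at 1 week and at 6.69, 6.59, 7.95, 8.54 and 7.43 at 4 weeks, and differed by -1.53 with overlap (limma adjusted p = 0.23). Probe sets of myosin heavy chains may share sequence. Of the myogenic factors, Myog differed by -0.73 and Myod1 by 0.23. Adult sarcomere genes had a median of -0.24, or -0.10 without replicate 2 at 4 weeks, with 0 of 22 called. Of the 22, 4 were lower at an unadjusted p under 0.05, against 4.48% of all probe sets.

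Steap4 and Glul were the genes that rose. Steap4 encodes a metalloreductase of the cell membrane that is induced in inflammation. Its log2 signal was 5.82, 5.26, 5.33, 5.18 and 6.04 at 1 week and 6.39, 7.46, 6.72, 6.44 and 6.37 at 4 weeks, so that all animals at 4 weeks were higher and replicate 2 was the highest. It rose 2.22-fold, by 1.15 log2 units (standard error 0.22, limma adjusted p = 0.038), and by 0.95 without replicate 2 (limma adjusted p = 0.060). Glul, the gene of glutamine synthetase, was measured at 8.40, 8.18, 8.19, 8.10 and 8.45 at 1 week and at 8.87, 9.08, 9.05, 8.68 and 8.80 at 4 weeks. It rose by 0.63 without overlap (standard error 0.12, limma adjusted p = 0.035), and by 0.58 without replicate 2 (limma adjusted p = 0.086).

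Genes known to respond to glucocorticoids were higher at 4 weeks as a list, although none of the 16 measured passed the test with all animals. Their median difference was 0.45, or 0.44 without replicate 2 at 4 weeks, with 13 above 0 and 7 higher at an unadjusted p under 0.05, against 5.76% of all probe sets. The mean signal of the list was 6.21 to 6.73 at 1 week and 6.90 to 7.48 at 4 weeks, with no overlap, and 6.58 to 7.01 at 8 weeks. Tsc22d3 (GILZ, a leucine zipper protein induced by the glucocorticoid receptor) was measured at 6.61, 7.11, 6.83, 7.0 and 6.46 at 1 week and at 7.96, 7.57, 7.53, 7.40 and 7.89 at 4 weeks, a difference of 0.87 without overlap (limma adjusted p = 0.063). Mt2A, a metallothionein that binds zinc and copper, was measured at 9.88, 9.96, 9.71, 9.48 and 9.90 at 1 week and at 10.43, 12.28, 10.65, 10.69 and 10.89 at 4 weeks. The groups did not overlap, replicate 2 being far above the others, and the difference was 1.20, or 0.88 without that animal (limma adjusted p = 0.090 and 0.0499). Without that animal Mt2A therefore passed the test, as it did in 3 of 21 alternatives (adjusted p from 0.033 to 0.44), and Tsc22d3 passed in 2 (adjusted p from 0.026 to 0.32).

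Other members were less even between animals. Pdk4, a kinase that blocks pyruvate oxidation, was at 8.23, 7.97, 8.68, 6.30 and 6.01 at 4 weeks against 5.70 to 6.28 at 1 week, and Angptl4, an inhibitor of lipoprotein lipase, was at 6.61, 7.09, 6.03, 4.89 and 4.75 against 4.50 to 5.05. In both genes replicates 1 to 3 were high and replicates 4 and 5 were near the 1-week range. Both also belong to the mitochondrial and fatty acid oxidation list, whose largest difference was that of Pdk4 (1.48, limma adjusted p = 0.27). What raised them was not tested. Lcn2 (lipocalin 2, which binds bacterial siderophores), named after its values were seen, had the widest difference of the list, 2.54 with overlap (limma adjusted p = 0.096), and 1.85 without replicate 2. Fkbp5 differed by 0.65, Per1 by 0.41 and Sgk1 by 0.05, none past the threshold. The labels record no steroid and no hour of sacrifice. Circadian clock genes had a median difference of 0.03, which changed sign under both rescalings. Their differences ran from -1.05 to 0.62, 7 below 0 and 8 above. Per2 differed by 0.55 and Nfil3 by 0.62, neither past the threshold (limma adjusted p = 0.23 and 0.51). The median of a list whose members moved both ways cannot show whether the hour of sacrifice differed, which was not tested.

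**Figure D3:**
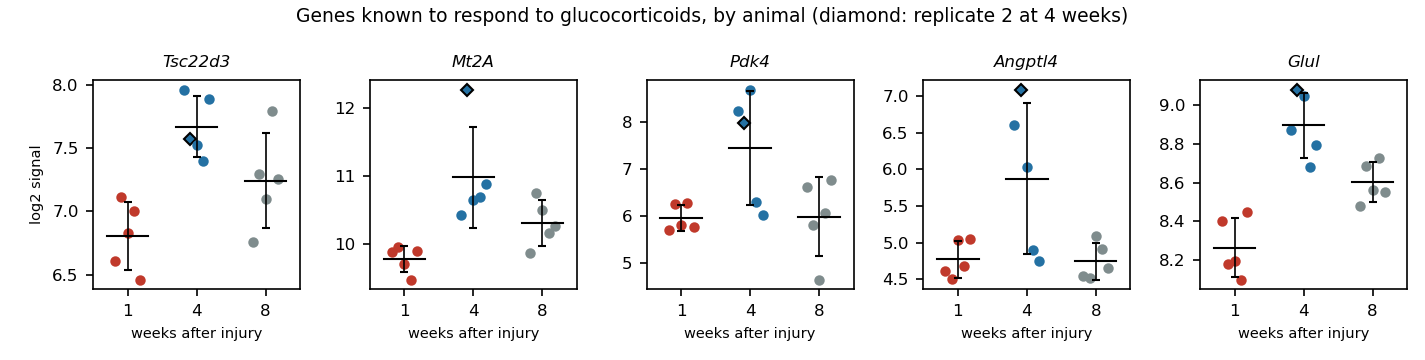
Log2 signal (y axis) at 1, 4 and 8 weeks after injury (x axis) of 4 genes of the glucocorticoid list and of Glul, by animal, with the mean as a line and bars of 1 SD (n = 5), and diamonds for replicate 2 at 4 weeks. Tsc22d3, Mt2A and Glul separate 1 from 4 weeks, and of these only Glul passed the test with all animals.

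Immune genes were higher at 4 weeks in most lists, without a call, and replicate 2 carried much of the difference. T and NK cell genes had a median difference of 0.53 over 26 genes, with 25 above 0. At an unadjusted p under 0.05, 8 were higher, against 5.76% of all probe sets. Without replicate 2 the median was 0.21 and 3 were higher. The mean signal of that list was 5.94 in replicate 2 at 4 weeks, 4.11 to 4.42 in the other 4 animals at 4 weeks and 3.84 to 4.40 at 1 week. Icos, a costimulatory receptor of activated T cells, was measured at 4.40, 4.50, 4.66, 4.14 and 5.81 at 1 week and at 6.21, 7.89, 5.27, 6.60 and 6.15 at 4 weeks. It differed by 1.72 with overlap, and by 1.36 without replicate 2 (limma adjusted p = 0.14 and 0.23). Cd3e, a chain of the T cell receptor complex, differed by 1.19, or by 0.73 without that animal.

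Macrophage and myeloid genes behaved likewise, with a median difference of 0.30 over 25 genes that was 0.02 without replicate 2, whose list mean was 7.88 against at most 6.54 in the other animals at 4 weeks. Antigen presentation genes had a median of 0.40, or 0.20 without it, interferon-stimulated genes 0.20, or 0.01 without it, and cell cycle genes 0.19, or 0.01 without it. B and plasma cell genes had a median of 0.33 and 0.19 without it. None of these lists had a called member. Cxcl13, a chemokine that attracts B cells, was at 5.29 to 6.74 at 1 week and at 8.53, 9.01, 7.83, 6.03 and 7.29 at 4 weeks, a difference of 1.98 with overlap (limma adjusted p = 0.16), and its 8-week mean was 8.68 ± 1.09 (SD, n = 5). Probe sets of the rat MHC genes of the RT1 complex may share sequence among themselves.

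**Figure D4:**
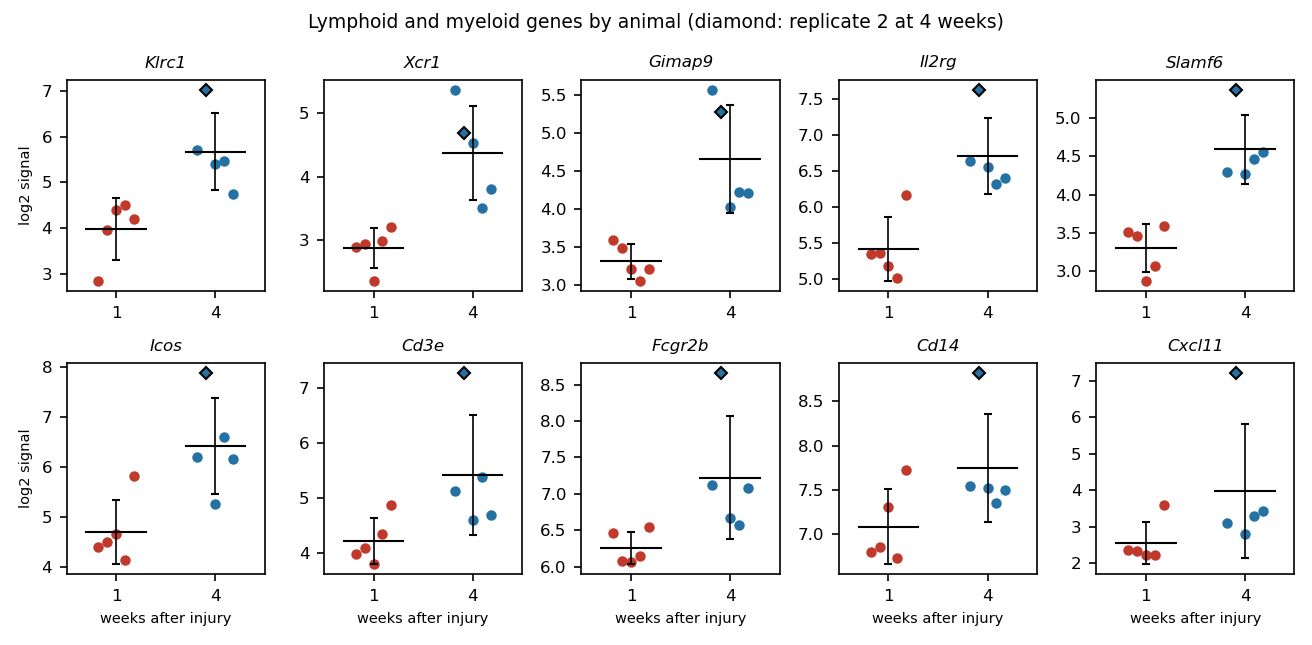
Log2 signal (y axis) at 1 and 4 weeks after injury (x axis) of 10 lymphoid and myeloid genes by animal, with the mean as a line and bars of 1 SD (n = 5), and diamonds for replicate 2 at 4 weeks. The upper row holds genes picked because their groups do not overlap, and replicate 2 stands far above the other 4-week animals in Il2rg and Slamf6. In the lower row replicate 2 is the highest animal in each gene, and the rest overlap or nearly do.

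The genes with the largest higher values at 4 weeks whose groups did not overlap, and which did not pass, were Sprr3, Klrc1, Xcr1, Gimap9, Il2rg and Slamf6. Sprr3, a cornified envelope protein of squamous epithelium, was measured at 4.82, 5.36, 4.72, 4.75 and 4.57 at 1 week and at 6.61, 6.27, 5.73, 7.73 and 7.94 at 4 weeks, a difference of 2.01 (limma adjusted p = 0.30), which passed in 1 of 21 alternatives, the fit of only the 10 arrays compared (adjusted p from 0.049 to 0.46 over the alternatives). In the same fit Slamf6, described below, passed as well (adjusted p from 0.045 to 0.52). The list of keratins and squamous epithelium had a median of 0.00. Xcr1, the chemokine receptor of cross-presenting dendritic cells, was at 2.89, 2.94, 2.35, 2.99 and 3.21 at 1 week and at 5.37, 4.68, 4.52, 3.51 and 3.80 at 4 weeks, a range that the background probe sets also cover. Klrc1 (an NK cell receptor of the NKG2 family, whose relatives may share probes), Gimap9 (a lymphocyte GTPase), Il2rg (the common gamma chain of interleukin receptors) and Slamf6 (a lymphocyte adhesion receptor) differed by 1.70, 1.35, 1.30 and 1.29. Without replicate 2 the differences were 1.35, 1.20, 1.07 and 1.10 and did not pass (limma adjusted p = 0.22 to 0.43).

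Endothelial genes differed the other way with respect to replicate 2. Their median difference was 0.20 over 24 genes and 0.31 without it, with 0 called. At an unadjusted p under 0.05, 6 were higher, against 5.76% of all probe sets, among them Pecam1 (0.51), Tie1 (0.45) and Plvap (0.41). Genes of hyaluronan synthesis, breakdown and binding had a median of 0.07 and 0 called of 14, with Has2, the main hyaluronan synthase of fibroblasts, at -0.44 and Cd44, the hyaluronan receptor, at 0.17. The widest difference of this list was that of Hapln1, -0.97 (limma adjusted p = 0.099). Hapln1 passed in 3 of 21 alternatives (adjusted p from 0.019 to 0.42). Matrix proteases and their inhibitors had a median of -0.07 and 0 called of 25, with 16 differences below 0 and 9 above. At an unadjusted p under 0.05, 6 of the 25 were lower and 1 higher, against 4.48% and 5.76% of all probe sets. Mmp23 differed by -0.73 without overlap (limma adjusted p = 0.090) and passed in 3 of 21 alternatives. Mmp14, a membrane-bound collagenase, differed by -0.76 and Mmp12, the macrophage elastase, by 0.96. Erythroid genes were all below 0 with a median of -0.27. Of the 11, 3 were lower at an unadjusted p under 0.05, against 4.48% of all probe sets.

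**Figure D5:**
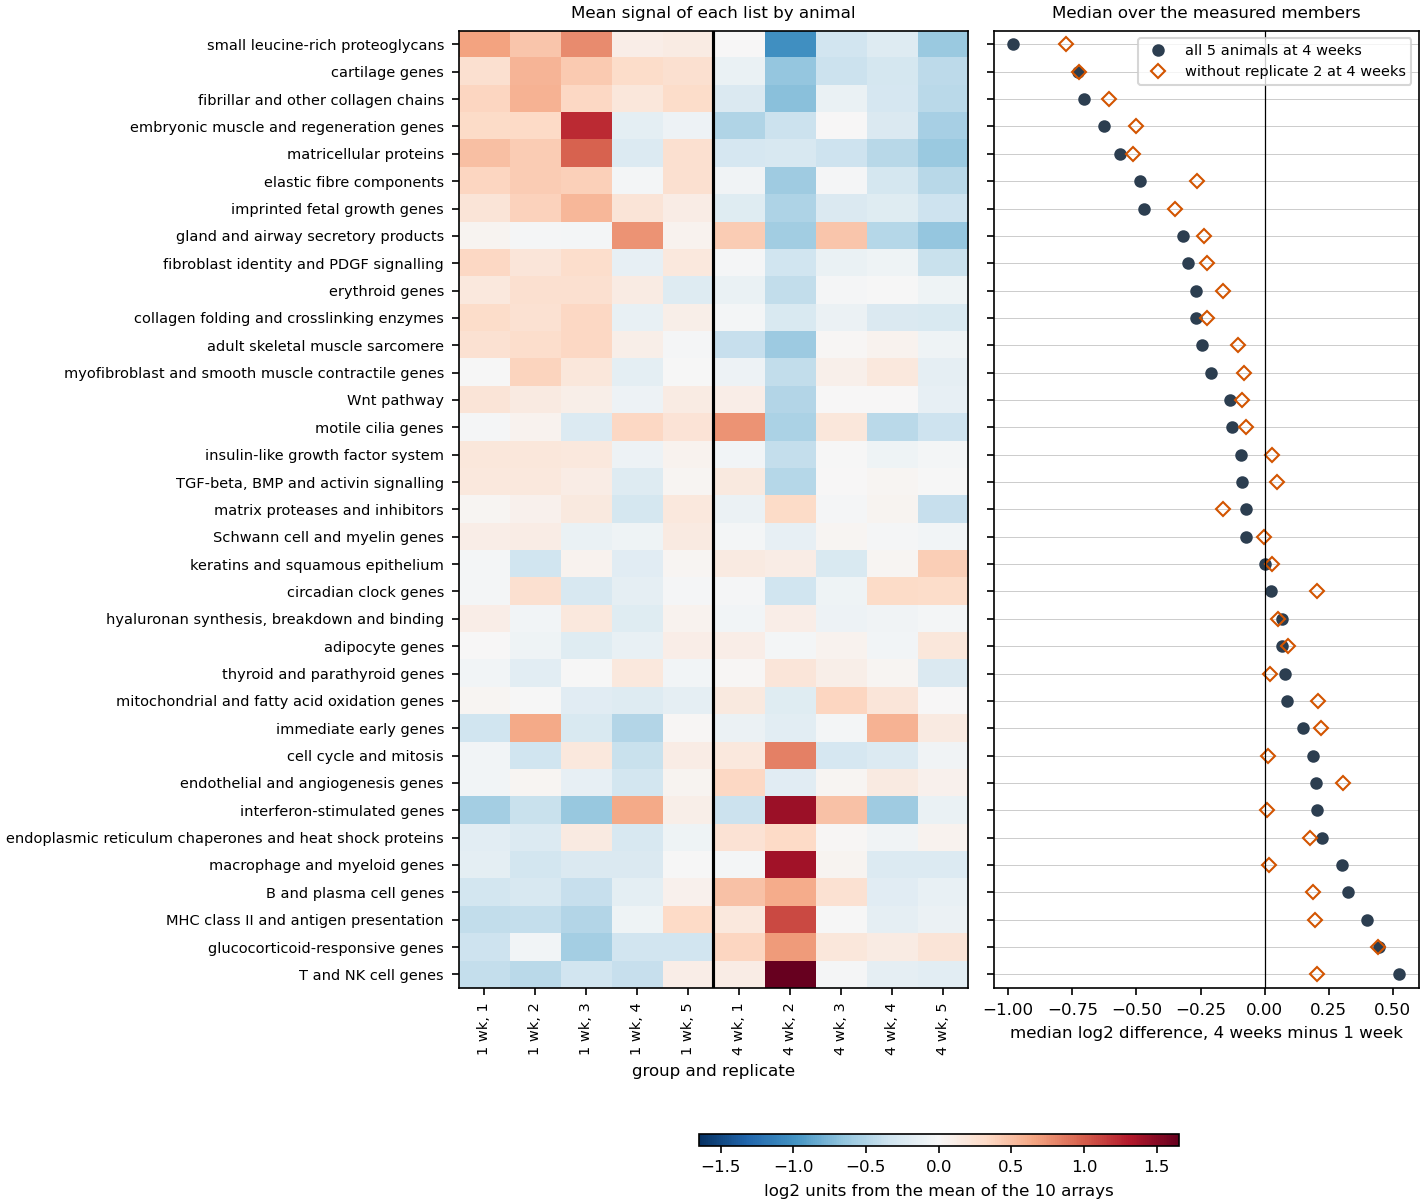
Left, mean log2 signal of the measured genes of each of 35 lists in each animal, as the deviation from the mean of the 10 arrays in colour; right, median log2 difference (4 weeks minus 1 week, x axis) of each list with all 5 animals at 4 weeks (circles) and without replicate 2 (diamonds). Matrix, cartilage and embryonic muscle lists lie to the left, the T and NK cell list has the highest median with all animals (0.53), and without replicate 2 its median is 0.21, below the glucocorticoid (0.44) and endothelial (0.31) lists.

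Wnt pathway genes had a median of -0.14 with 0 of 23 called, and Sfrp4, a secreted Wnt antagonist, had the widest difference, -1.03. At an unadjusted p under 0.05, 6 of the 23 were lower and 0 higher, against 4.48% and 5.76% of all probe sets. The mitochondrial, heat shock, immediate early and adipocyte lists had medians of 0.09, 0.22, 0.15 and 0.07 with 0 called in each. Airway and gland products had a median of -0.32, with Bpifa1 at -1.26 and Scgb1a1 at -0.88, none past the threshold, and motile cilia genes had a median of -0.13. Of the 18 airway and gland genes 3 were lower at an unadjusted p under 0.05, against 4.48% of all probe sets. Without replicate 2 at 4 weeks this count was 0. Schwann cell genes had a median of -0.07. The sign of the list median held in every alternative setting for 27 of the 35 lists and changed in at least 1 for the clock, hyaluronan, insulin-like growth factor, keratin, protease, Schwann cell, TGF-beta and thyroid lists, whose medians all lay within 0.1 of 0.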

How the data were processed

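The authors deposited log2 RMA signal intensities, which are background-corrected and summarised over the probes of each probe set. The methods name the Clariom S array, TAC and global scaling, whereas the labels name the Clariom D array, with Affymetrix Expression Console listed in the submitters' processing notes, and RMA was not rerun from probe-level data. The deposited table holds 24871 probe sets with values from 0.63 to 12.84. Of these, 9822 had no gene symbol in the platform annotation, which includes all 131 manufacturer controls, and were not tested except as an alternative. The 10 genes with several probe sets kept each of them as a separate value, and gene lists used the probe set with the highest mean.

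The fit used limma 3.58.1 (R 4.3.3; lmFit, then eBayes; two-sided) on the deposited values of the 15 injured animals, with the contrast 4 weeks minus 1 week, no covariate, and Benjamini-Hochberg adjustment over 15049 probe sets at a threshold of 0.05. Each array is a different animal, and the number of animals limits the precision. No count or depth exists for arrays. The test was tried on simulated data before use. Lists (35, of 651 measured entries) were described by counts and medians and not tested. The naming rule took the markers, the called genes and the 2 members of each list with the smallest unadjusted p. It also took the 6 largest higher values without overlap between groups, at an unadjusted p under 0.01, that did not pass. Ccl20, Car12 and Cebpd were named outside this rule, as the next probe sets by p beyond the threshold. Not every list member so taken is printed, and in some lists genes picked later are printed instead. Fn1, Sparc, Spp1, Tnc, Emilin1, Fbln1, Fbln5, Fbn2, Mfap4, Mfap5, Col1a1, Fkbp10, Plod2, Aspn, Dcn, Epyc, Igf1, Igf1r, Igf2r, Cdkn1c, Dlk1, Mest, Grem1, Tgfb1, Acta2, Fap, Pdgfra, Pdgfrb, Acan, Myod1, Myog, Fkbp5, Lcn2, Per1, Sgk1, Cd44, Mmp12, Plvap and Scgb1a1 were chosen after their values were seen. The members, lists and tests were chosen with earlier results of these data known. Alternatives were quantile normalization, median centring, an intensity trend with robust prior, array weights, other sets of arrays, leaving out each animal, the replicate number as a block, removal of the dimmest 25%, averaging of the probe sets of a gene, inclusion of unnamed probe sets, a minimum log2 difference of 1, and the one-way analysis of the methods. Figures were drawn with matplotlib 3.10.9 in Python 3.11.15.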

Additional observations from a re-analysis of the deposited data

Results flagged for a closer look

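In 25 of 242 checks of a gene or list within a group of 5 animals, 1 animal lay far from the others, where chance flags about 1 in 20. Of the 25, 14 were replicate 2 at 4 weeks. Its log2 signals, given with the range of the other 4 animals of its group, were 7.63 for Il2rg (6.31 to 6.63), 5.37 for Slamf6 (4.27 to 4.56), 12.28 for Mt2A (10.43 to 10.89), 7.21 for Cxcl11 (2.79 to 3.42), 8.67 for Fcgr2b (6.58 to 7.13), 8.82 for Cd14 (7.36 to 7.55) and 7.27 for Cd3e (4.61 to 5.38). All 7 were above the others. Its list means were also high for macrophage and myeloid genes at 7.88 (6.27 to 6.54), T and NK cell genes at 5.94 (4.11 to 4.42), antigen presentation genes at 7.68 (6.45 to 6.77) and hyaluronan genes at 5.95 (5.75 to 5.81). They were low for TGF-beta, BMP and activin signalling at 5.25 (5.72 to 5.88), the insulin-like growth factor system at 6.25 (6.57 to 6.64) and erythroid genes at 4.33 (4.63 to 4.73).

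At 1 week, replicate 4 was low for Pamr1 at 3.07 (4.26 to 4.67), Bgn at 9.75 (10.20 to 10.34) and Fzd2, a Wnt receptor, at 6.46 (6.93 to 7.08), and high for gland and airway products, with a list mean of 7.25 (6.48 to 6.57). Replicate 5 at 1 week was high for Cxcl11, an interferon-induced chemokine, at 3.59 (2.22 to 2.36), and for T and NK cell genes at 4.40 (3.84 to 3.97), and low for erythroid genes at 4.52 (4.87 to 5.0). Replicate 2 at 1 week was high for Zfp36, which destabilises mRNAs of inflammation, at 7.57 (6.27 to 6.59). At 4 weeks, replicate 4 was low for Postn at 6.99 (8.14 to 8.48), and replicate 5 was low for Fbn1 at 8.60 (8.82 to 8.91) and Tagln at 6.05 (6.55 to 6.68).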

How the results depend on the processing

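The called counts were 25 in all, 23 lower and 2 higher at 4 weeks. They were 45, 42 and 3 after quantile normalization, 51, 46 and 5 after median centring, 39, 33 and 6 with an intensity trend and robust prior, 58, 49 and 9 with array weights, 17, 14 and 3 with only the 10 arrays compared, 19, 19 and 0 with all 20 arrays, 29, 24 and 5 without the dimmest 25% of probe sets, 18, 18 and 0 over 24740 probe sets other than controls, and 14, 13 and 1 with a log2 difference of at least 1. Without moderation of the spread, the methods' one-way analysis called 1402, 614 and 788 at an unadjusted p under 0.05 and 0, 0 and 0 after Benjamini-Hochberg. With 1 animal left out, the total ranged from 6 to 51, the lower from 6 to 49 and the higher from 0 to 9. The cause of these shifts was not tested. No difference of the 86 genes chosen by the naming rule changed sign. The genes picked after their values were seen were not rerun, and median centring took the median difference over all probe sets from 0.02 to -0.03. Over all alternatives 1619 values of the 86 genes stayed on their side of the threshold, 186 lost a call and 81 gained one. These include the one-way analysis at an unadjusted p under 0.05, where a gain is no call after adjustment. No single-gene count of alternatives includes the minimum log2 difference of 1, and the counts out of 21 also leave out that unadjusted analysis. Thbs2, Cthrc1, Igf2, Eln, Ndn and Maged2 were called in 21 of 22 alternatives, the exception being the methods' one-way analysis after adjustment. The 22 include the one-way analysis at an unadjusted p. Maged2, at -0.95, did not reach the minimum log2 difference of 1. The mean over the probe sets of a gene left 25, 23 and 2.

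With the replicate number as a block, 25 were called, 22 lower and 3 higher, and 17 of the original 25 stayed called. Same-numbered animals at 1 and 4 weeks had correlations of their deviations from -0.15 to 0.03, and 0 were closest to their own number. Against the 8-week animals the correlations were -0.17 to 0.28, and 4 of the 15 same-numbered pairs in all were closest to their own number. Among these were replicates 2 and 5 between 4 and 8 weeks (0.28 and 0.23). So few pairs cannot show whether same-numbered animals shared more than a number, which was not tested. The arrays hold no detection calls, and differences among genes near the background probe sets, such as Pamr1, Armcx6 and Xcr1, are less certain than their p-values. The brightest background probe set of each array read 6.14 to 7.14. The 4-week means of Thbs2, Cthrc1, Igf2, Ndn and Lrrc15 (4.86, 5.37, 4.94, 4.46 and 3.74) lay below that. Those signals may be partly background, and the fold values of these genes are uncertain for that reason.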
